A study of Rattus norvegicus with 8 samples.

Results

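The 9 laminin and nidogen genes named here were followed in primary rat nucleus pulposus (NP) cells, which fill the soft centre of an intervertebral disc, after knockdown of Sirt6, a NAD-dependent deacylase of chromatin. The genes were chosen by name, with earlier results of these data known. They are the laminin α chains Lama2, Lama3, Lama4 and Lama5, the β chains Lamb1, Lamb2 and Lamb3, the γ chain Lamc1, and nidogen 1 (Nid1). Of these 9 genes, 8 had a row in the gene table and all 8 were tested, among 13250 genes tested in all. Lama3 had no row of that name in the table that pairs identifiers with names, which lists only rows with more than 80 reads over the 8 libraries, and it was not analysed here. NP cells of adult Sprague Dawley rats were grown in serum-containing medium, transduced with lentivirus and selected with puromycin. The Sirt6-KD group (n = 4, libraries S5 to S8) received a mixture of ShSirt6 clones and the Sirt6-Ctrl group (n = 4, libraries S1 to S4) received a control ShRNA, so both groups carry a lentiviral ShRNA and neither is untreated. The samples came from independent experiments, and RNA was measured as reads counted on each gene. Fewer cells of a type and less RNA per cell cannot be told apart in such bulk samples.

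Laminins are secreted trimers of 1 α, 1 β and 1 γ chain that join in a coiled coil and polymerize into the sheet of a basement membrane. The α chain carries the globular domains that integrins and dystroglycan bind, while nidogens link the laminin γ1 chain to the collagen IV network. NP cells descend from the notochord, whose sheath is rich in laminin, and laminins also surround NP cells of young discs, where integrins hold the cells to them.

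Sequences are shown for the chains of one trimer, Lama5, Lamb1 and Lamc1, which were all called higher in Sirt6-KD. Each is the 250 bases before the gene's annotated start, read 5′ to 3′ on the strand of the gene, from RefSeq on the GRCr8 build, and capitals mark the GC box, the letters GGGCGG on either strand. The Lama5 window is chr3:187695975-187696224 on the minus strand, the Lamb1 window chr6:53562846-53563095 on the plus strand and the Lamc1 window chr13:68051987-68052236 on the minus strand.
Lama5: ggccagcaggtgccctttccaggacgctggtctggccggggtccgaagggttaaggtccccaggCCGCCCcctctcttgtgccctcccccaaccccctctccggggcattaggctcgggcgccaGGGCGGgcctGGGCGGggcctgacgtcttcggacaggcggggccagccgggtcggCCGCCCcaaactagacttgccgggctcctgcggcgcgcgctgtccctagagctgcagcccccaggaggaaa
Lamb1: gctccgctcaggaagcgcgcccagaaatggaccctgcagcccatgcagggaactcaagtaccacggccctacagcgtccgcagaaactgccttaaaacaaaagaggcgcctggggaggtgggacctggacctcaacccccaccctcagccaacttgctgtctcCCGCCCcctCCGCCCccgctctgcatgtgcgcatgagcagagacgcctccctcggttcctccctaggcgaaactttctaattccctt
Lamc1: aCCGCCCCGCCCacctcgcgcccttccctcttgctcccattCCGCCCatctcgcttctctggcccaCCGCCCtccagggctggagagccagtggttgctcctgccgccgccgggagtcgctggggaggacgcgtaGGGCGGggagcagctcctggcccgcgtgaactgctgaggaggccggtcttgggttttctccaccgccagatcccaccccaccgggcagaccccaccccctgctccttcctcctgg
The GC box occurred 4 times in the Lama5 window, 2 times in the Lamb1 window and 5 times in the Lamc1 window, where the copies at 249 and 244 bases before the start overlap. It also occurred 2 times before Nid1 and 1 time before Lama2, and was not found before Lama4 or Lamb3. Over 33469 rat promoters of the same length, 30.5% held at least 1 copy. Of the named genes with an entry, TATAAA was found before Lama4 only, 205 bases from the start, against 12.9% of all promoters. The AP-1 motif TGANTCA was found in none of the windows of the 7 measured genes that have an entry, against 6.34% of all promoters, while the window of Lama3, which was not measured, held 3 copies. Those 7 windows were also rich in G and C, from 53.2% before Lama4 to 72.8% before Lama5, where the median of all promoters was 51.2%. A match describes letters only, and the annotated start need not be the one used in these cells. Lamb2 and Nid2 had no entry.

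The library totals ranged from 31994838 to 40124813 reads, and no pair of libraries was close enough to be 1 library deposited more than once. Reads of the ERCC spike-ins (artificial RNAs mixed into each sample) were 6.27%, 9.80%, 3.08% and 2.97% of the total in S1 to S4 and 2.15% to 2.47% in the knockdown libraries, with p = 0.0286 by a two-sided exact permutation test, which is the lowest value 4 against 4 can reach. The Sirt6-Ctrl libraries were also less alike than the Sirt6-KD libraries, with pairwise correlations of log2 CPM from 0.889 to 0.941 against 0.966 to 0.972. S3 stood closer to Sirt6-KD, with correlations of 0.944 to 0.950. Sirt6 (ENSRNOG00000006393) had 1964, 1755, 1782 and 1962 reads in S1 to S4 and 753, 702, 738 and 695 in S5 to S8, so every library matched its label. In CPM, reads scaled to the TMM-normalized library size, Sirt6 averaged 52.7 ± 3.78 in the controls and 20.6 ± 1.07 in the knockdown (± SD, n = 4 each), with a log2 fold change of -1.35 and an adjusted p of 0.000713 by edgeR. Scaled to the spike-ins it was -0.36 (adjusted p = 0.567, edgeR), or -1.31 relative to the median of all genes. Of the NP markers listed, 8 had a row and were tested (Krt8, Car12, Cd24, Foxf1, Pax1, Cdh2, Acan and Sox9), while Krt18, Krt19, Shh, Tbxt and Col2a1 had none. The 8 had 3 positive and 5 negative log2 fold changes, and Krt8 was the 1 called, lower in Sirt6-KD, at 6.56 ± 3.07 against 2.63 ± 0.473 CPM (log2 fold change -1.32, adjusted p = 0.0441, edgeR). Over all 13250 genes 6739 log2 fold changes were negative and 10.7% of genes were called lower, so these counts lie near those of all genes.

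As a group, the laminin chains and nidogen 1 leaned higher in Sirt6-KD cells. Calls needed an edgeR quasi-likelihood p under 0.05 after Benjamini-Hochberg adjustment over every row tested, together with more than a 1.5-fold difference. On that basis 5 of the 8 tested members were called higher (Lama4, Lama5, Lamb1, Lamc1 and Nid1), and the other 3 (Lama2, Lamb2 and Lamb3) were not called. Over all 13250 genes 8.02% were called higher and 10.7% lower. In the same 5 genes each Sirt6-KD library exceeded each Sirt6-Ctrl library, as was so for 14.8% of all genes. The log2 fold changes had a median of 0.96, against -0.016 for all genes, and all 8 were positive, although that of Lamb3 was -0.09 after a gene length correction and -0.12 without S5. Summed over the 8 genes, the level spanned 729 to 1330 CPM across the controls and 1831 to 1934 CPM across the knockdown libraries. The spread was wider in the controls. Among the 5 called genes the coefficient of variation was 24.0% to 60.6% in Sirt6-Ctrl and 6.60% to 16.1% in Sirt6-KD.

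**Figure D1:**
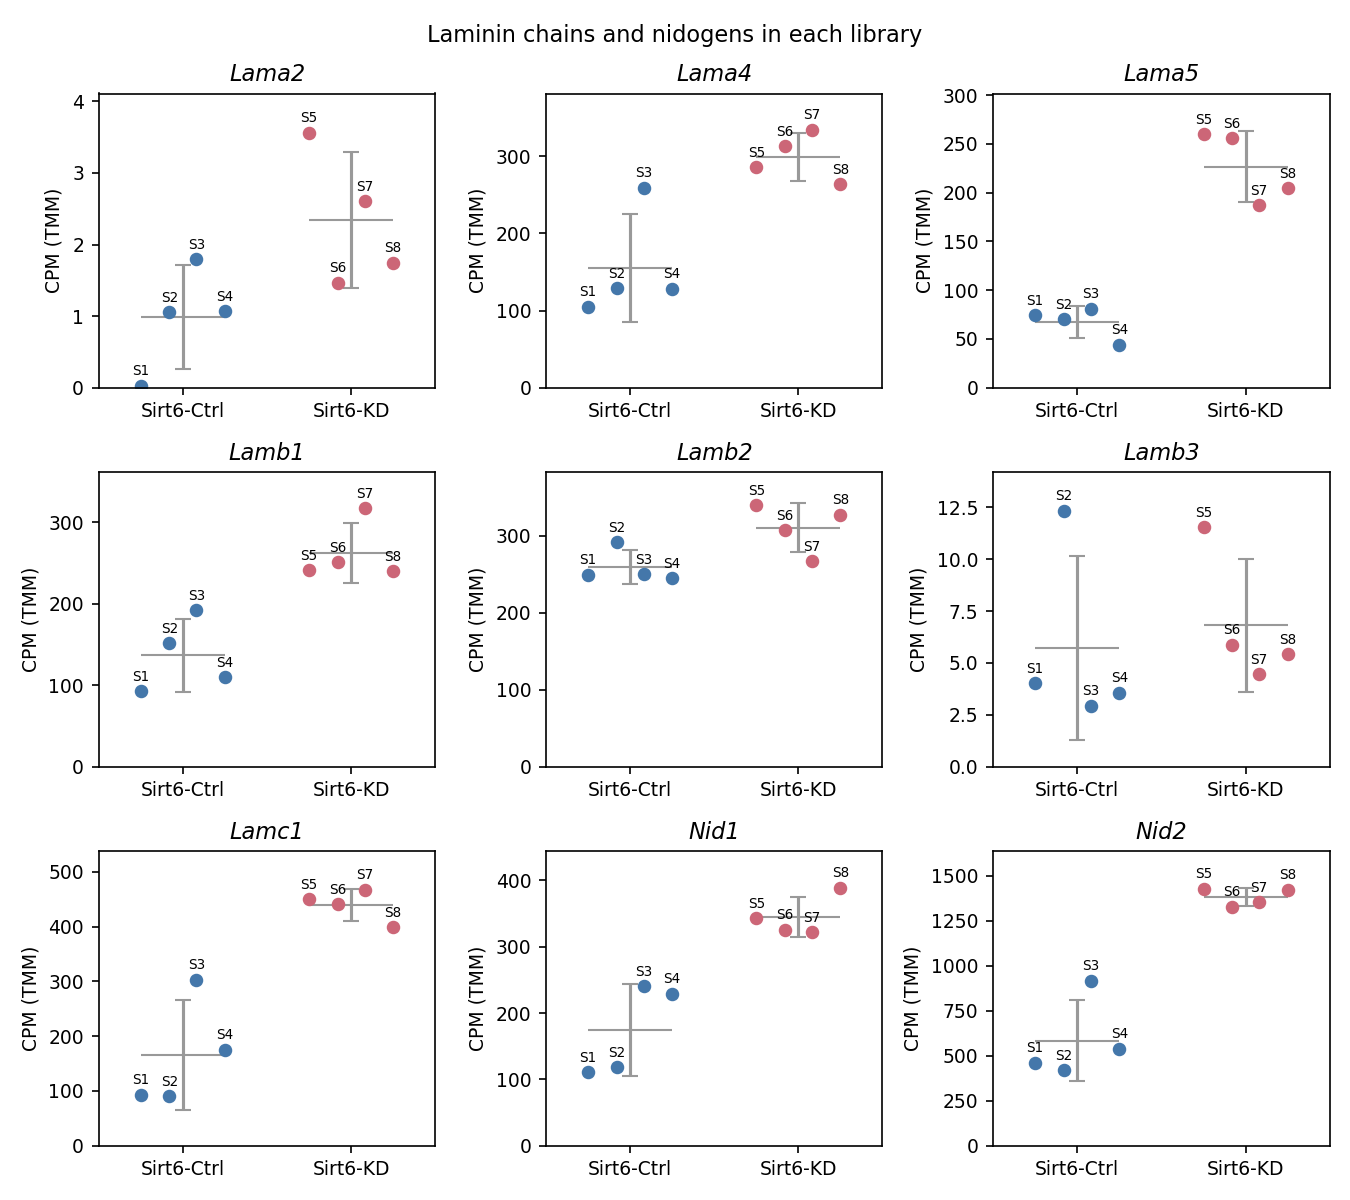
Levels (TMM-normalized CPM, linear axes from 0) of the 8 measured laminin and nidogen genes and of Nid2, 1 panel per gene, with 1 point per library and bars for the mean ± SD of the 4 libraries of each group. Every Sirt6-KD library lies above every Sirt6-Ctrl library for Lama4, Lama5, Lamb1, Lamc1, Nid1 and Nid2, while the groups overlap for Lama2, Lamb2 and Lamb3.

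Among the α chains, which decide which receptor a laminin meets, Lama5 showed the strongest rise. Lama5 (ENSRNOG00000053691) encodes the α5 chain of laminin-511, a common laminin of adult basement membranes. Its level was 74.3, 70.4, 80.9 and 44.1 CPM in S1 to S4 and 260, 256, 187 and 205 CPM in S5 to S8. The lowest Sirt6-KD library was thus well above the highest Sirt6-Ctrl library. Lama5 rose in the knockdown, with means (± SD, n = 4 each) of 67.4 ± 16.2 and 227 ± 36.5 CPM, 3.37 times apart. By edgeR its log2 fold change was 1.75 (SE 0.20, 95% interval 1.31 to 2.20), with an adjusted p of 0.00143. It was the only gene of the 5 to be called under every setting tried, with log2 fold changes from 1.45 to 2.75 and adjusted p-values from 5.78e-13 to 0.0362. Within these, leaving out any 1 library gave 1.59 to 1.85.

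Lama4 (ENSRNOG00000000599) encodes the α4 chain, found in vessel walls and other mesenchymal basement membranes. Its level was 105, 129, 259 and 128 CPM in S1 to S4 and 285, 313, 334 and 264 CPM in S5 to S8. S3 stood far above the other Sirt6-Ctrl libraries and came close to S8. Lama4 rose in the knockdown, with means (± SD, n = 4 each) of 155 ± 70.1 and 299 ± 30.9 CPM. By edgeR its log2 fold change was 0.94 (SE 0.26, 95% interval 0.38 to 1.51), with an adjusted p of 0.0263. This call was the least stable of the 5. It was lost without S1 (adjusted p = 0.0739), S2 (0.0514), S4 (0.054), S5 (0.0619), S6 (0.0718) or S7 (0.0759) by edgeR, and without S3 the adjusted p was 0.000426. After a correction for gene length the log2 fold change was 0.41 (adjusted p = 0.178, edgeR).

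Lama2 (ENSRNOG00000011134) encodes the α2 chain of muscle and peripheral nerve laminin, and was barely detected. It had 1, 34, 61 and 44 reads in S1 to S4 and 123, 49, 100 and 59 in S5 to S8. S1 held almost no reads, and the groups overlapped because S3 exceeded S6 and S8. The controls averaged 0.986 ± 0.726 CPM and the knockdown libraries 2.34 ± 0.945 CPM (± SD, n = 4 each), giving a log2 fold change of 1.25 with a 95% interval of -0.70 to 3.19 (adjusted p = 0.336, edgeR). At so few reads the interval holds both a fall and a rise of more than 1.5-fold.

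Of the 3 β chains Lamb1 alone was called. Lamb1 (ENSRNOG00000005678) encodes the β1 chain, the most widespread β chain, and measured 92.8, 152, 192 and 110 CPM in S1 to S4 and 242, 251, 317 and 240 CPM in S5 to S8. Every Sirt6-KD library was above S3, the highest control, and S7 stood above the others of its group. Lamb1 rose in the knockdown, with means (± SD, n = 4 each) of 137 ± 44.6 and 262 ± 36.8 CPM. By edgeR its log2 fold change was 0.94 (SE 0.22, 95% interval 0.46 to 1.43), with an adjusted p of 0.0156. The call was lost without S7 (adjusted p = 0.0532, edgeR) and after the gene length correction (log2 fold change 0.53, adjusted p = 0.127, edgeR).

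Lamb2 (ENSRNOG00000047768) encodes the β2 chain of neuromuscular, kidney and vessel basement membranes. Its level was 249, 292, 250 and 244 CPM in S1 to S4 and 340, 307, 267 and 327 CPM in S5 to S8. The groups overlapped only through S2 and S7. The controls averaged 259 ± 22.0 CPM and the knockdown libraries 310 ± 31.9 CPM (± SD, n = 4 each), and the log2 fold change of 0.26 had a 95% interval of -0.02 to 0.54 (SE 0.13, adjusted p = 0.164, edgeR). The upper end of that interval corresponds to less than a 1.5-fold rise. Lamb2 varied by 8.51% between the Sirt6-Ctrl libraries, the lowest coefficient of variation among the 8 genes.

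Lamb3 (ENSRNOG00000006025) encodes the β3 chain, found in a laminin that anchors epithelia. It was low in both groups, with 140, 399, 100 and 147 reads in S1 to S4 and 399, 197, 171 and 183 in S5 to S8. S2 and S5 held the highest counts and the groups overlapped. Its log2 fold change was 0.26 with a 95% interval of -0.88 to 1.39 (adjusted p = 0.757, edgeR). Lama1 and Lamc3, which were also listed, had no row of that name.

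Lamc1 (ENSRNOG00000002680) encodes the γ1 chain, which most laminins contain and to which nidogens bind. Its level was 92.7, 90.0, 303 and 175 CPM in S1 to S4 and 450, 441, 467 and 399 CPM in S5 to S8. The Sirt6-Ctrl libraries differed by up to 3.37 times, with S1 and S2 lowest and S3 highest, whereas the Sirt6-KD libraries lay within 1.17 times of each other. Lamc1 rose in the knockdown, with means (± SD, n = 4 each) of 165 ± 100 and 439 ± 29.0 CPM, 2.66 times apart. By edgeR its log2 fold change was 1.41 (SE 0.35, 95% interval 0.64 to 2.18), with an adjusted p of 0.0187. The call was lost without S1 (adjusted p = 0.0554), S5 (0.051), S6 (0.053) or S7 (0.0526) by edgeR. Spike-ins also took their largest shares in S1 and S2, and without both of them the log2 fold change was 0.89 (adjusted p = 0.0277, edgeR).

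Nid1 (ENSRNOG00000002461) encodes nidogen 1, and measured 111, 118, 240 and 229 CPM in S1 to S4 and 343, 325, 322 and 389 CPM in S5 to S8. Here S1 and S2 were both low and S3 and S4 both higher, yet all 4 were below the Sirt6-KD libraries. Nid1 rose in the knockdown, with means (± SD, n = 4 each) of 174 ± 69.6 and 345 ± 30.9 CPM. By edgeR its log2 fold change was 0.98 (SE 0.25, 95% interval 0.42 to 1.54), with an adjusted p of 0.0220. The call was lost without S1 (adjusted p = 0.0597), S5 (0.0581), S6 (0.0572), S7 (0.0533) or S8 (0.0589) by edgeR. Without S1 and S2 together the log2 fold change was 0.57, just under the 1.5-fold threshold (adjusted p = 0.0219, edgeR).

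The related nidogen 2, encoded by Nid2 (ENSRNOG00000000341) and not among the chosen genes, moved the same way. Its level was 460, 421, 916 and 538 CPM in S1 to S4 and 1427, 1329, 1353 and 1422 CPM in S5 to S8. Again S3 was the highest control and S2 the lowest. The means (± SD, n = 4 each) were 584 ± 227 and 1383 ± 49.5 CPM, with a log2 fold change of 1.24 (SE 0.23) and an adjusted p of 0.00713 by edgeR, and leaving out any 1 library did not end the call, although spike-in scaling (adjusted p = 0.0766) and glmTreat (0.0678) did.

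**Figure D2:**
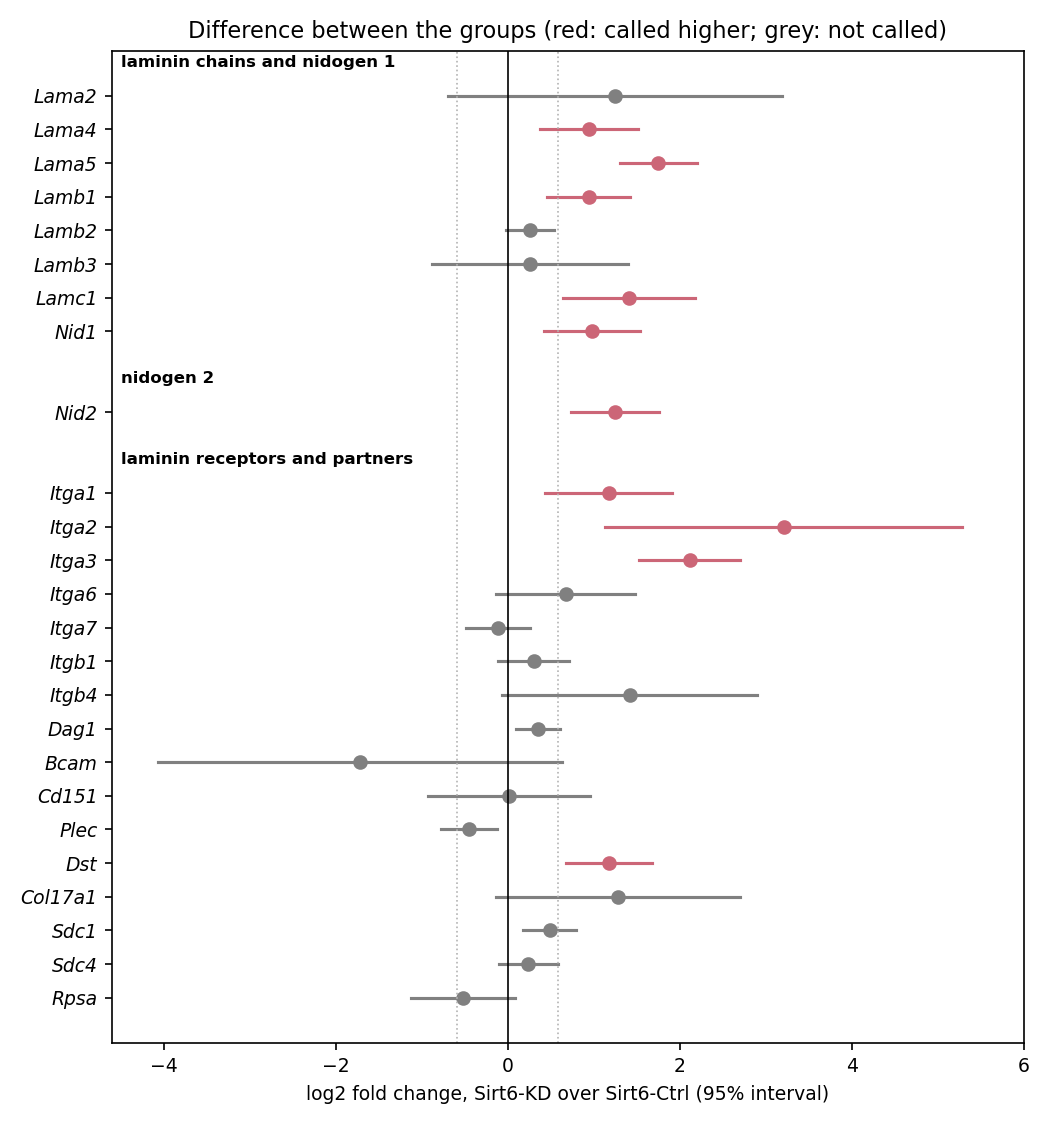
Log2 fold changes of Sirt6-KD over Sirt6-Ctrl (points) with 95% intervals (bars) for the 8 measured laminin and nidogen genes, Nid2 and the 16 laminin receptors and their partners; dotted lines mark the 1.5-fold thresholds. Red points are called higher and grey points are not called, and the interval of Lama5 (1.31 to 2.20) lies above that of Lamb2 (-0.02 to 0.54).

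Ratios of reads between 2 chains within a library do not depend on how libraries are scaled. Lamb2 was taken as the reference chain after its values were seen, because its level varied least between the Sirt6-Ctrl libraries, so these ratios are a description. In Sirt6-KD its coefficient of variation was 10.3%, above those of Lamc1 (6.60%) and Nid1 (8.96%). The ratios were not corrected for gene span, introns included, which is shorter for Lamb2 than for Lama5, Lamc1, Nid1, Lama4 or Lamb1. The ratio of Lama5 to Lamb2 reads was 0.298, 0.241, 0.324 and 0.180 in S1 to S4 and 0.765, 0.833, 0.702 and 0.626 in S5 to S8. Relative to Lamb2, Lama5 was thus higher in every knockdown library than in any control, and the group means (geometric) differed by 2.86 times. Lamc1 against Lamb2 spanned 0.309 to 1.21 in the controls and 1.22 to 1.75 in the knockdown, and its groups were apart only by the margin between S3 and S8. Nid1 against Lamb2 ran from 0.404 to 0.962 and from 1.01 to 1.21. For Lama4 and Lamb1 the ratios to Lamb2 overlapped, at 0.422 to 1.04 against 0.806 to 1.25 for Lama4 and 0.372 to 0.769 against 0.711 to 1.19 for Lamb1. The chains with the highest called fold changes overlapped in their ratio to each other, since Lama5 to Lamc1 was 0.252 to 0.802 in the controls and 0.400 to 0.581 in the knockdown. Nid1 to Nid2 ran from 0.241 to 0.425 and from 0.238 to 0.273.

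**Figure D3:**
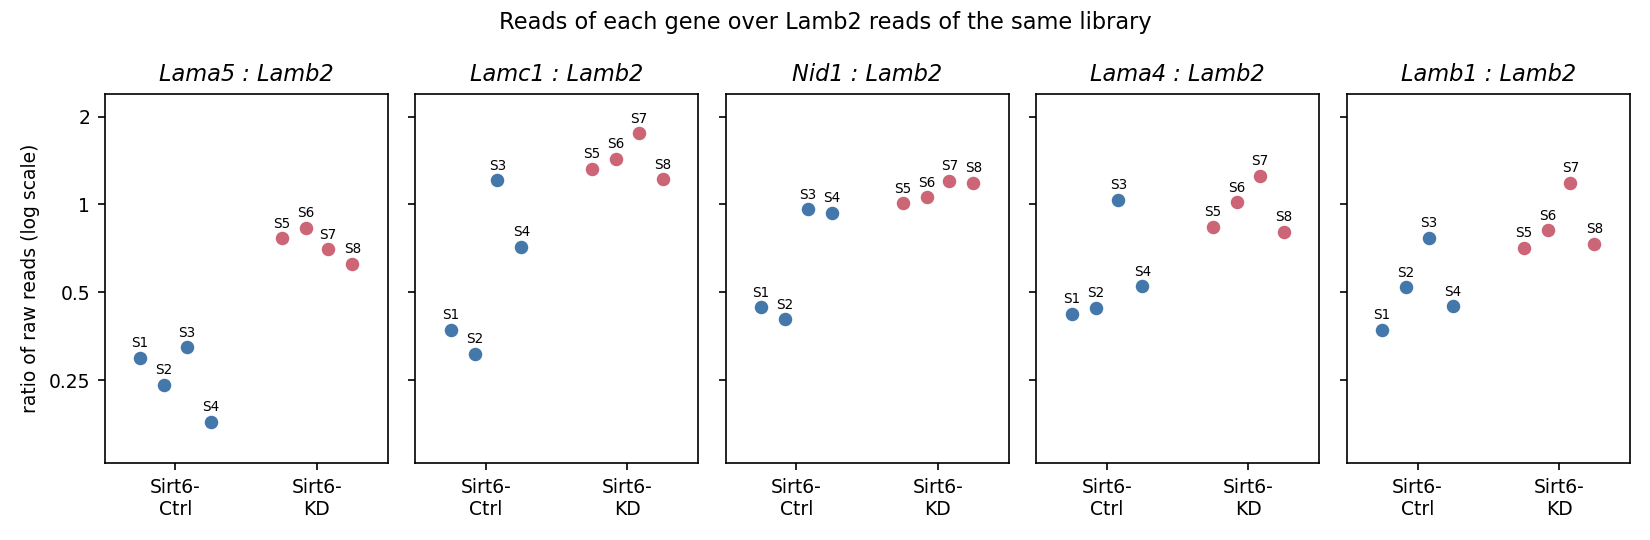
Reads of Lama5, Lamc1, Nid1, Lama4 and Lamb1 per read of Lamb2 (log axis), 1 panel per gene, with 1 labelled point per library in each group. The Sirt6-KD points lie above all Sirt6-Ctrl points for Lama5, Lamc1 and Nid1, and the groups overlap for Lama4 and Lamb1.

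The gene span and the spike-in share of the libraries moved with these results. Genes with a longer span, introns included, had higher fold changes: the median log2 fold change went, over 10 bins of equal gene number, from -0.37 in the bin of shortest genes to 0.52 in that of the longest, and the share called higher from 2.28% to 21.6%. Lama4 was longer than 91% of the tested genes, Lamc1 than 89%, Nid1 than 79%, Lamb1 than 77% and Lama5 than 69%, and of the genes not called Lama2 than 99%, Lamb3 than 65% and Lamb2 than 28%. After a loess correction of each library for span, 3 of the 8 genes were called higher (4.92% of all genes), with log2 fold changes of 1.45 for Lama5 (adjusted p = 0.00503, edgeR), 0.97 for Lamc1 (0.0193) and 0.61 for Nid1 (0.0397). The second feature was the spike-in share given above. Scaling to the spike-in reads put the median of all genes at 0.94, and 1 of the 8 genes, Lama5, was called higher, as were 0.151% of all genes (log2 fold change 2.75, which is 1.80 relative to that median, adjusted p = 0.0362, edgeR). Relative to the same median, Lamc1 stood at 1.14, Lamb1 at 0.91, Lama4 at 0.80, Nid1 at 0.78 and Lamb2 at 0.31. Without S1 and S2, the libraries of highest spike-in share, 3 of the 8 genes were called higher (Lama5, Lamb1 and Lamc1) against 5.71% of all genes. DESeq2 called 5 of the 8 higher against 10.6% of all genes, and glmTreat, which tests whether a change exceeds 1.5-fold, called only Lama5 against 0.694%. Whether span or spike-in share contributed to the rises was not tested.

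**Figure D4:**
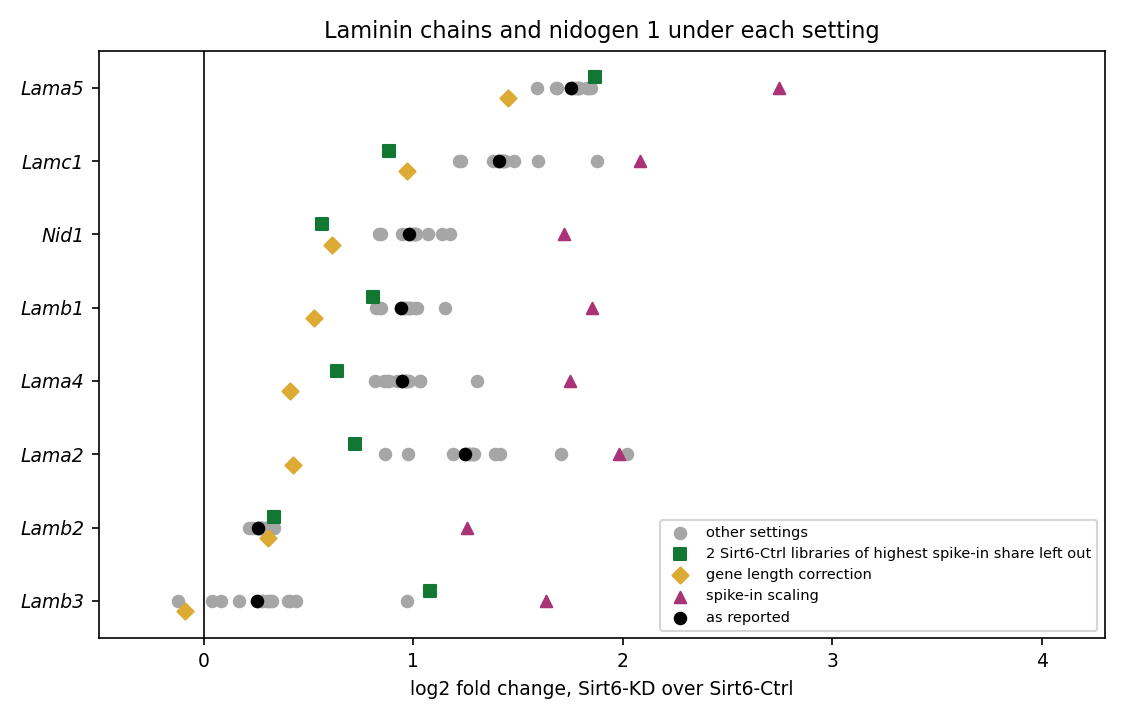
Log2 fold changes of the 8 laminin and nidogen genes under the reported settings and each alternative, 1 row per gene; black circles are the reported values, triangles spike-in scaling, diamonds the gene length correction, squares the fit without S1 and S2, and grey circles the other settings. Lama5 stays between 1.45 and 2.75, every gene lies furthest right or nearly so under spike-in scaling, and Lamb3 has values on both sides of 0.

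Across the 8 libraries, after each group's mean was removed, some pairs of these genes varied alike. Lamc1 and Nid1 correlated at r = 0.89, Lama4 and Lamc1 at 0.87 and Lama4 and Lamb1 at 0.86, while Lamb2 and Lamb3 correlated at 0.82. Other genes were nearer in pattern, since the closest of the 8 to each ranked from 118 (for Lamb2) to 2306 (for Lama5) among all genes, and 498 for Lamc1 and 514 for Nid1. Lama5 followed none of the others closely, with r from -0.32 to 0.42. Over all tested genes, those nearest in pattern were Ddit4 for Lama4 (0.995), Abhd2 for Lama5 (0.960), Ppp1r3c for Lamb1 (0.989), Plpp5 for Lamb2 (0.985), Dlc1 for Nid1 (0.994), Pde5a for Lama2 (0.989) and Trim47 for Lamb3 (0.987). For Lamc1 the nearest was RF00406 (0.995), a small RNA entry. These values describe 8 libraries of 1 cell type and similar depth, and the nearest gene was the best match among all genes tested. For Lamc1 and Nid1 the spread lay mostly in Sirt6-Ctrl, so their r rests mainly on those libraries. The coefficients of variation were 60.6% and 39.9% in Sirt6-Ctrl, against 6.60% and 8.96% in Sirt6-KD. For Lamb2 they were 8.51% and 10.3%.

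Laminin receptors and their partners were read from a fixed list of 16 genes, all tested. By the same rule 4 of 16 were called higher (Itga3, Dst, Itga1 and Itga2) and 0 lower, against 8.02% and 10.7% of all genes, with a median log2 fold change of 0.42. The strongest of those at high level was Itga3, whose α3 integrin subunit binds laminin-511. Itga3 measured 235, 308, 604 and 312 CPM in S1 to S4 and 1666, 1580, 1619 and 1456 CPM in S5 to S8, for which edgeR gave a log2 fold change of 2.12 (SE 0.27) at an adjusted p of 0.00214. Its groups were far apart. Dst, which encodes a plakin that ties integrins to intermediate filaments, rose, with means of 296 ± 97.5 and 669 ± 67.0 CPM (± SD, n = 4 each; log2 fold change 1.18, adjusted p = 0.00766, edgeR). Itga1 and Itga2 encode collagen-binding integrin subunits that also bind some laminins. Itga1 went from a mean of 40.4 ± 21.0 to 91.2 ± 26.0 CPM (log2 fold change 1.17, adjusted p = 0.0313, edgeR) and Itga2 from 2.11 ± 2.95 to 19.5 ± 7.52 CPM (log2 fold change 3.21, SE 0.94, adjusted p = 0.0343, edgeR). Itga2 had few reads in S1 and S2, with 5, 8, 218 and 67 in S1 to S4 and 586, 475, 1175 and 547 in S5 to S8.

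Their shared β1 partner, Itgb1, was not called (log2 fold change 0.30, adjusted p = 0.271, edgeR), and neither was the α6 subunit Itga6, at 20.8 ± 9.72 against 33.3 ± 13.1 CPM (log2 fold change 0.68, adjusted p = 0.208, edgeR). Dystroglycan, encoded by Dag1, was 250 ± 22.0 against 319 ± 11.2 CPM, with groups apart but past neither threshold (log2 fold change 0.35, adjusted p = 0.0528, edgeR). Sdc1, a heparan sulfate proteoglycan, passed the p threshold but not the fold threshold (log2 fold change 0.49, adjusted p = 0.0317, edgeR). Rpsa and Sdc4 had log2 fold changes of -0.52 and 0.24 (adjusted p = 0.199 and 0.298, edgeR). The number of receptors called higher was 2 without S1, S5, S6, S7 or S8 (against 3.28% to 5.42% of all genes), 2 after the length correction (4.92%), which also called Plec (named after its values were seen) lower, and 1 with spike-in scaling (0.151%). With glmTreat the number was also 1 (0.694%).

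Of 24 other basement membrane components listed, 19 were tested, 3 were called higher (Tinagl1, Col4a5 and Col18a1) and 1 lower (Sparc), against 8.02% and 10.7% of all genes, with a median log2 fold change of 0.47. Tinagl1, a secreted protein of basement membranes, rose, with means of 20.6 ± 13.2 and 74.7 ± 4.61 CPM (± SD, n = 4 each; log2 fold change 1.86, adjusted p = 0.00972, edgeR). The major collagen IV chains were not called, with log2 fold changes of 0.08 for Col4a1 (adjusted p = 0.867, edgeR) and 0.47 for Col4a2 (0.218), while the minor chain Col4a5 rose by 0.88 (0.0211). Col18a1, the source of endostatin, rose by 0.91 (adjusted p = 0.0237, edgeR), and Fbln2 was level at -0.01 (0.989). Sparc, a collagen-binding matricellular protein, fell, with means of 9328 ± 2039 and 4708 ± 1355 CPM (± SD, n = 4 each; log2 fold change -0.99, adjusted p = 0.0179, edgeR), with S3 below S8. Hspg2, Fras1, Frem1 and Frem2 had no row, and Col15a1 was below the count filter. Without S1, S5 or S6 the count called higher was 1 (against 3.28% to 4.06% of all genes), and Sparc lost its call without S1, S5, S6 or S7. After the length correction the count called higher was also 1 (4.92%). None was called higher with glmTreat (0.694%), with spike-in scaling (0.151%) or without S1 and S2 together (5.71%), and Sparc lost its call there too.

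Of 12 proteases able to cleave laminins or nidogens, 11 were tested, 3 were called higher and 0 lower, against 8.02% and 10.7% of all genes, with a median log2 fold change of 0.053. The 3 were Mmp3, stromelysin 1 (log2 fold change 1.52, adjusted p = 0.00803, edgeR), Adamts1 (1.15, 0.0310) and the plasminogen activator Plat (0.72, 0.0237). Ctsb, Htra1 and Mmp14 had log2 fold changes of -0.14, -0.22 and 0.05 (adjusted p = 0.576, 0.336 and 0.794, edgeR). Without S1, S6 or S7 the number called higher was 1 (against 3.28% to 4.06% of all genes), and without S7 Mmp2, named after its values were seen, was called lower. With glmTreat (0.694% of all genes) or spike-in scaling (0.151%) no protease was called higher.

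Laminin chains are also made by vessel, muscle, nerve and epithelial cells, so markers of these were read in the same libraries. Of 8 endothelial markers only Tek had a row, with at most 21 reads in any library, and of 5 epithelial markers none had one. In this and the other lists, a missing row can mean few reads or a gene listed under another name. It does not show that a gene was absent. The summed pericyte and smooth muscle list was 433 to 1609 CPM in the controls and 513 to 1125 CPM in the knockdown, with none of 6 genes called. Within it Acta2 was 19.8, 33.8, 76.2 and 1048 CPM in S1 to S4 and 128, 113, 83.8 and 583 CPM in S5 to S8, with S4 and S8 far above the rest of their groups. The annulus or fibroblast list ran from 14528 to 27479 CPM and from 8671 to 18518 CPM, with Col3a1 and Scx called lower among 7 tested. Col1a1 made up most of that sum, with means of 17093 and 11032 CPM, and was not called (adjusted p = 0.150, edgeR). The 7 had 1 positive and 6 negative log2 fold changes. Immune markers ran from 11.9 to 29.7 and from 15.0 to 23.8 CPM, with 0 of 3 called. Of the 2 Schwann cell markers tested, S100b was called lower, and the list's sum ran from 134 to 234 and from 65.8 to 114 CPM. The NP list ran from 250 to 322 and from 285 to 324 CPM. That sum hides opposite moves, since 3 of its log2 fold changes were positive and 5 negative, from -1.32 to 1.53. For all these lists, the shares called over all genes were 8.02% higher and 10.7% lower. The part of other cell types in the laminin values was not tested.

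In the RefSeq annotation of GRCr8, Lama5, Lamb1, Lamb2, Lamb3 and Nid1 overlap no other gene. Lama2 and Lama4 overlap long noncoding RNA and pseudogene entries, and Lamc1 overlaps a pseudogene. The strand setting of the counting is not given in the sources used here, so reads of such entries cannot be told apart from reads of the laminin genes.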

How the data were processed

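RNA-seq was performed by the authors on primary rat NP cells of the Sirt6-Ctrl and Sirt6-KD groups. Per the submitters' processing notes, the tools were Trimmomatic 0.36, STAR 2.5.2b, featureCounts of Subread 1.5.2 and DESeq2, with the Rnor_6.0 build. The authors deposited raw counts per gene and spike-in (32975 rows). They also deposited a comparison table of 13612 rows, which was used for gene names only: it holds the authors' normalized signal per library and, for their own test, a log2 fold change with its raw and adjusted p-value.

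Genes were filtered with filterByExpr, normalized by TMM and tested with edgeR 4.0.16 (glmQLFit and glmQLFTest, two-sided, unpaired, R 4.3.3) over all 8 libraries, with Benjamini-Hochberg adjustment over 13313 rows, of which 63 were spike-ins. The standard error was the log2 fold change divided by the square root of the F statistic. Scripts were tested on simulated data. The simulation gave all genes and both groups the same dispersion, so it does not cover the wider spread of the Sirt6-Ctrl libraries. Alternatives used DESeq2 1.42.0, limma 3.58.1 (voom), other filters and normalizations, glmTreat, a loess correction (span 0.5) for gene span and each library left out. Gene span, from RefSeq GRCr8, was known for 86% of the genes tested.

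The 9 genes and the lists were chosen with earlier results of these data known. The rule for named genes took all 9 genes, other laminin and nidogen genes (1 of which is not reported here), and of each other list those called and the most abundant not called; Itga6, Dag1, Sdc1, Acta2 and the called marker genes were named after their values were seen. Levels of different genes were not ranked, since transcript lengths were not used here. A count of 3 reads corresponds to 0.0727 to 0.0928 CPM, which covers counting error only. The labels tie no library to an animal, so p-values measure the spread between these samples.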

Additional observations from a re-analysis of the deposited data

Results flagged for a closer look

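Of 62 groups of 4 libraries examined, in 7 the extreme library stood off from its closest neighbour by a share of the group's range above Dixon's critical value, where chance gives about 1 in 20 groups, or 3.1. In Sirt6-Ctrl, S3 was the highest for Lama4 (gap 0.845 of the range). S2 was the highest of the same group for Lamb2 (0.885) and for Lamb3 (0.885). In Sirt6-KD, S7 was the highest for Lamb1 (0.857) and for Itga2 (0.831). S8 was the highest of that group for Itga1 (0.887) and for Itgb1 (0.985).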

How the results depend on the processing

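The number of laminin and nidogen genes called higher was 5 as reported. It was also 5 with RLE or upper-quartile scaling, other count filters, no spike-in rows, DESeq2, limma-voom and no fold threshold. It was 1 with glmTreat, which tests against the 1.5-fold threshold itself, 1 with spike-in scaling, 3 after the gene length correction and 3 without the 2 Sirt6-Ctrl libraries of highest spike-in share. With 1 library left out it ranged from 1 to 5, at 2 without S1, S5 or S6 and 1 without S7. None was called lower under any setting, and no called gene changed sign. Over all genes, 1063 were called higher and 1416 lower as reported, 92 and 185 with glmTreat, 20 and 4 with spike-in scaling, and 652 and 1661 after the length correction. Without S1, S5, S6 or S7 the number called higher over all genes was 552, 491, 445 and 477 and lower 777, 791, 700 and 759, and without S3 it was 1699 and 1913. Without S1 and S2 together it was 810 and 709. The cause of these shifts was not tested. The median log2 fold change over the 8 genes was 0.48 after the length correction and 1.80 with spike-in scaling. No paired analysis was possible because no number in the sample names is shared between the groups, although the series record speaks of a control for each knockdown. The unpaired tests used here therefore ignore any such pairing. Lama2 and Lamb3 had too few reads for a narrow interval at this depth.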
